A study of Mus musculus with 24 samples.

Results

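MicroRNA levels were compared among the 4 most pericentral populations of sorted mouse hepatocytes, called zones 1 to 4, on 12 of the 24 arrays of the series. The 12 arrays were taken by the zone number in the labels. Zones 3 and 4 (6 arrays) were set against zones 1 and 2 (6 arrays) inside each mouse, and the profile over the 4 zones was fitted as well. The cells came from 3 male C57BL/6J mice aged 3 months that were fed freely and kept in a reversed light cycle, with no treatment. Liver cells were freed by liberase perfusion, cells that were dead or carried CD45 or CD31 were removed, and only tetraploid hepatocytes were kept. They were ordered by 2 surface proteins, the pericentral marker CD73 and the periportal marker E-cadherin, so that zone 1 was the most pericentral and zone 8 the most periportal gate. Each population held 50000 cells, and each array held the RNA of 1 zone of 1 mouse. A zone is therefore a gate on 2 proteins and not a measured distance, and it holds no cells of other ploidy. All 4 zones of a mouse lay on 1 slide, in its first row and in zone order, so zone and slide column cannot be told apart, nor can mouse and slide.

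MicroRNAs are short RNAs, cut from a hairpin precursor, that guide silencing proteins to messenger RNAs. Pairing rests mainly on the seed, bases 2 to 8 of the mature strand, so miRNAs with the same seed can share targets. In the liver lobule, hepatocytes near the central vein carry out glutamine synthesis, glycolysis and much of drug metabolism, and those near the portal tract gluconeogenesis, urea synthesis and fatty acid oxidation.

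The mature sequences of the miRNAs on which the results turn are shown first, 5′ to 3′ with the seed in capitals, as given by RefSeq for GRCm38.p6, where 246 of the 288 tested miRNAs had an entry. The first set holds miRNAs with higher signals in zones 3 and 4, among them 4 that share the stretch UGGAGAGA or its reverse complement and a pair with the same seed.
miR-3473a: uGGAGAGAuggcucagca
miR-3473b: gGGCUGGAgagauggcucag
miR-3473c: uCUCUCCAgcccccauaauaag
miR-3095-3p: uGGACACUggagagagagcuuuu
miR-706: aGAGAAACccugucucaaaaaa
miR-21a-3p: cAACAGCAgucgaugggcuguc
miR-30c-1-3p: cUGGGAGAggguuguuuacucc
miR-30c-2-3p: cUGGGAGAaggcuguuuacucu
The second set holds miRNAs with lower signals in zones 3 and 4, including the tested relatives of miR-16-5p, which share the seed AGCAGCA.
miR-130a-3p: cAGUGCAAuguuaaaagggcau
miR-423-3p: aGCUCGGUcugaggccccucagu
miR-24-3p: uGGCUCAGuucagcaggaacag
miR-5100: uCGAAUCCcagcggugccucu
miR-3968: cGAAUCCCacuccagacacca
miR-15a-5p: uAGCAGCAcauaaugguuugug
miR-15b-5p: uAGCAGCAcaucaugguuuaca
miR-16-5p: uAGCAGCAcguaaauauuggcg
miR-195a-5p: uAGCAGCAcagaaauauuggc
The third set holds 5 miRNAs of the imprinted Dlk1-Dio3 cluster that were detected on the same 4 arrays.
miR-127-3p: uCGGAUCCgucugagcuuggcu
miR-136-5p: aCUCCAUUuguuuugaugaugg
miR-154-5p: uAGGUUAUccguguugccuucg
miR-379-5p: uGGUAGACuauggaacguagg
miR-434-3p: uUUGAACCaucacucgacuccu

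On GRCm38.p6 miR-3473b lies at chr10:41670774-41670793 on the plus strand within the span of Ccdc162, and miR-3473a at chrX:162874920-162874937 on the minus strand within Syap1. miR-3473c lies at chr1:191998602-191998623 (minus, within Traf5), miR-3095-3p at chr4:58441023-58441045 (minus, within Lpar1) and miR-706 at chr6:120034290-120034311 (minus, within Wnk1). miR-21a-3p lies at chr11:86584082-86584103 (minus, within Vmp1), miR-30c-1-3p at chr4:120769546-120769567 (minus, within Nfyc) and miR-30c-2-3p at chr1:23291754-23291775 (plus). Of the second set, miR-130a-3p lies at chr2:84741116-84741137 (minus), miR-423-3p at chr11:77078086-77078108 (minus, within Nsrp1), miR-5100 at chr11:60728698-60728718 (plus, within Mief2) and miR-3968 at chr11:115447969-115447989 (minus, within Trim80). The mature miR-24-3p comes from 2 places, chr8:84208875-84208896 and chr13:63301251-63301272 (within Aopep), both on the plus strand. miR-195a-5p lies at chr11:70235062-70235082 (plus). The 5 Dlk1-Dio3 miRNAs lie on the plus strand of chromosome 12, from miR-127-3p at chr12:109592888-109592909 to miR-154-5p at chr12:109738438-109738459. Whether a miRNA within a gene span is exonic or intronic was not looked up.

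Of 1881 mouse miRNAs on the array, 388 were called detected on at least 1 of the 12 arrays, 213 on all 12, and the 288 detected on at least 6 were tested. Between 248 and 313 miRNAs were detected per array, with summed signals of 65970 to 137270 intensity units. The number of detected miRNAs was 284 ± 26.1 in zones 1 and 2 and 297 ± 13.6 in zones 3 and 4 (SD, n = 6 each), a difference that exact permutation of zones within mice placed at p = 0.306, two-sided, with an adjusted p of 0.611 over 4 array totals. The summed signal, the scaling percentile and the share of miR-122-5p had exact permutation p-values of 0.630, 0.611 and 0.0648, adjusted 0.630, 0.630 and 0.259. Of the variance of a miRNA over the 12 arrays, mouse took a median of 46.1%, zone 15.9% and the residual 32.1%. These shares were not corrected for noise, so the zone share includes some. The first principal component (46.9% of the variance) put the 4 arrays of mouse 2 at 7.03 to 9.80 and the other 8 arrays at -7.31 to 2.82. Zone 1 of mouse 2 stood apart from the other 5 arrays of its zone pair in several abundant hepatocyte miRNAs. Zone 4 of mouse 2 did so in let-7f-5p, let-7g-5p, miR-221-3p and the scaling percentile. For the lists that hold these miRNAs the values without both arrays are given as well.

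Levels in zones 3 and 4 were close to those in zones 1 and 2 for most miRNAs. The difference of the zone pairs had a median of 0.03 log2 units over the 288 tested miRNAs and a median size of 0.17, which is 1.12-fold. The 95% interval of the difference lay within 2-fold either way for 239 miRNAs (83.0%) and within 1.5-fold for 169 (58.7%). Of the 213 miRNAs detected on all 12 arrays, 207 had an interval within 2-fold. A single miRNA, miR-1949, was higher in zones 3 and 4 at an adjusted p under 0.05 (1 of 288, 0.347%) and none was lower (0 of 288), by limma with the mouse as a block and Benjamini-Hochberg adjustment. At an unadjusted p under 0.05, 25 were higher (8.68%) and 7 lower (2.43%). That split depended on the scaling and on 1 array: it was 42 and 1 with the summed signal, 10 and 17 with quantile normalization, and 24 and 18 without zone 1 of mouse 2. The slope over the 4 zones passed for miR-1949 as well, 1 rising (0.347%) and 0 falling, with 28 rising (9.72%) and 14 falling (4.86%) at an unadjusted p under 0.05. The F test over 4 zones, which assumes no shape, passed for 0 miRNAs, with 14 (4.86%) at an unadjusted p under 0.05. These 3 tests used the same arrays, so they are not independent of each other.

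**Figure D1:**
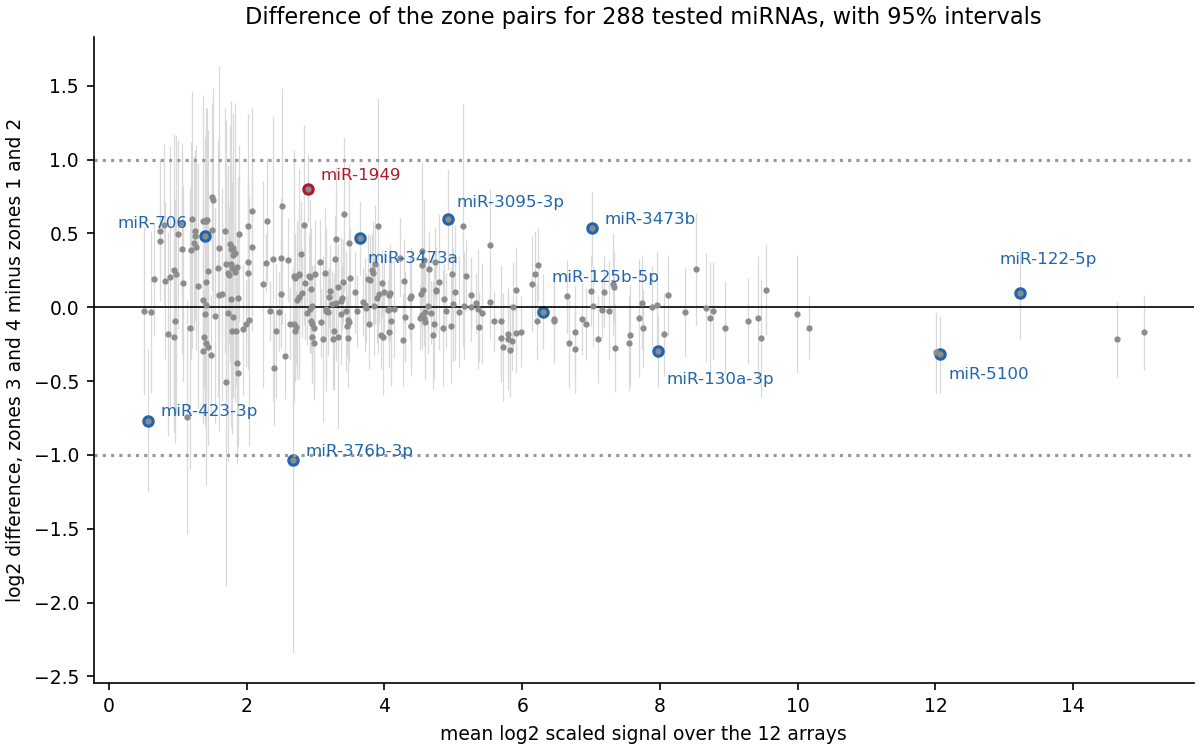
Log2 difference of zones 3 and 4 from zones 1 and 2 (vertical) against the mean log2 scaled signal over the 12 arrays (horizontal) for the 288 tested miRNAs, with 95% intervals from limma; dotted lines mark 2-fold. miR-1949 (red, 0.80) is the miRNA past the threshold, other named miRNAs are blue, and the intervals are widest among dim miRNAs.

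The scatter around 0 was wider for dim miRNAs than for bright ones. Between mean signal and the difference the Pearson correlation over the 288 miRNAs was -0.30 (Spearman -0.32), and between GC content and the difference it was 0.25 (Spearman 0.30) over the 246 with a sequence. These are descriptions over miRNAs that share the same 12 arrays. The differences of single mice correlated at 0.353 for mice 1 and 2, 0.265 for mice 1 and 3 and 0.188 for mice 2 and 3 (Pearson, 288 miRNAs). The difference had the same sign in all 3 mice for 129 miRNAs, 81 higher and 48 lower.

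miR-1949 gave the clearest gradient. In mouse 1 its log2 scaled signal was 2.41, 2.65, 3.27 and 3.43 in zones 1 to 4, in mouse 2 it was 2.60, 3.19, 3.49 and 3.51, and in mouse 3 it was 1.85, 2.22, 3.06 and 2.98. Inside every mouse both arrays of zones 3 and 4 lay above both arrays of zones 1 and 2, while across mice the ranges overlapped, since zone 2 of mouse 2 lay above both higher zones of mouse 3. The mean was 2.49 ± 0.45 in zones 1 and 2 and 3.29 ± 0.23 in zones 3 and 4 (SD, n = 6 each). The difference was 0.80 ± 0.10 (SE), or 1.75-fold with a 95% interval of 1.48 to 2.06, higher in 3 of 3 mice (limma adjusted p = 0.0105). The slope was 0.37 ± 0.05 log2 units per zone (SE, limma adjusted p = 0.00954), and the F test gave an adjusted p of 0.0580.

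Most of the change in miR-1949 lay between zones 1 and 3. Its zone means were 2.28 ± 0.39, 2.69 ± 0.48, 3.27 ± 0.22 and 3.31 ± 0.29 in zones 1 to 4 (SD, n = 3 each). In zones 5 to 8 they were 3.38 ± 0.07, 3.27 ± 0.39, 3.10 ± 0.30 and 3.21 ± 0.36, so zones 3 to 8 differed among themselves by less than zone 1 differed from any of them. The signal was dim: after scaling it ran from 3.61 to 11.4 intensity units on the 12 arrays, the 177th of 288 mean signals, and the deposited error was 13.9% of the signal in the median. The call depended on single libraries although the difference stayed between 0.72 and 0.90. The adjusted p of the difference was 0.270, 0.110 and 0.521 without mouse 1, 2 or 3, and 0.0673 without zone 4 of mouse 1. Without zone 1, 2, 3 or 4 of mouse 3 it was 0.0607, 0.0528, 0.0632 and 0.0611. With arrays unscaled it was 0.198, with quantile normalization 0.0822, with all 24 arrays in 1 fit 0.0823 and without the mouse block 0.822. Without zones 1 and 4 of mouse 2 together it was 0.0647 for the difference and 0.0306 for the slope. The slope call was lost without mouse 1, 2 or 3 (adjusted p = 0.178, 0.0645 and 0.111), without zone 1 of mouse 1 (0.0528) and without zone 1 of mouse 3 (0.0669). It was also lost with arrays unscaled (0.154), with quantile normalization (0.0754), with all 24 arrays (0.0709) and without the mouse block (0.406).

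**Figure D2:**
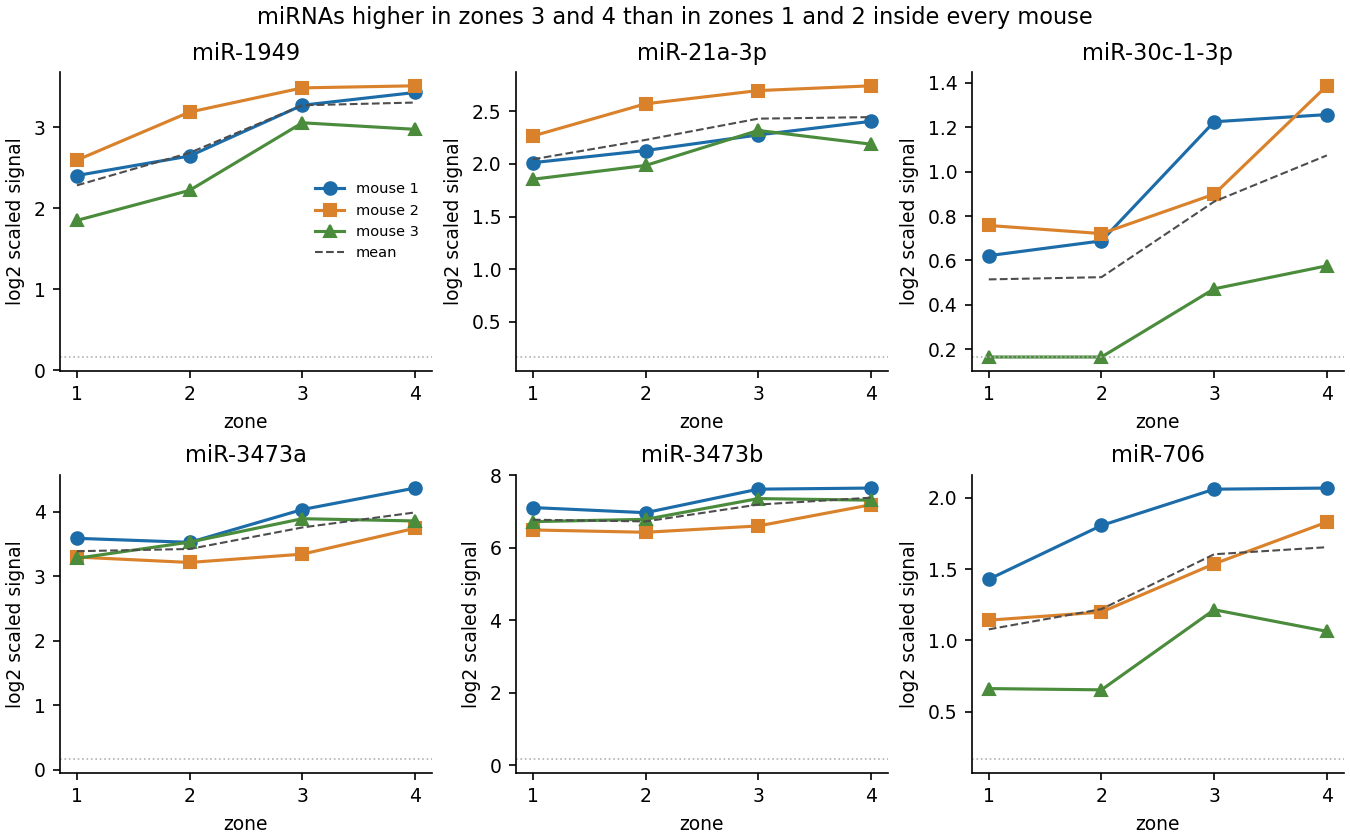
Log2 scaled signal (vertical; each panel has its own axis) in zones 1 to 4 (horizontal) for the 6 miRNAs in which zones 3 and 4 lay above zones 1 and 2 inside each of the 3 mice; coloured lines join the arrays of a mouse, the dashed line is the mean of the 3 mice and the dotted line the floor. miR-1949 climbs from 2.28 to 3.31 in the mean, and zones 1 and 2 of mouse 3 sit at the floor for miR-30c-1-3p.

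No miRNA had all 6 arrays of zones 3 and 4 above or below all 6 of zones 1 and 2 (0 of 288 each way). Inside each of the 3 mice, zones 3 and 4 lay above zones 1 and 2 without overlap for 6 miRNAs (2.08%) and below for 0. These 6 were miR-1949, miR-21a-3p, miR-30c-1-3p, miR-3473a, miR-3473b and miR-706. Apart from miR-1949 they did not pass the adjusted threshold for the difference, and the direction of miR-30c-1-3p turned under quantile normalization.

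miR-3473b, a bright rodent array sequence of no settled function, measured 7.11, 6.96, 7.61 and 7.64 in zones 1 to 4 of mouse 1, 6.49, 6.42, 6.60 and 7.18 in mouse 2, and 6.72, 6.78, 7.35 and 7.31 in mouse 3 (log2 scaled signal). Zones 3 and 4 were the higher ones in each mouse, but zone 3 of mouse 2 was below zones 1 and 2 of the other mice. The difference was 0.54 ± 0.11 (SE, limma adjusted p = 0.103), 1.45-fold. miR-3473a differed by 0.47 ± 0.11 (adjusted p = 0.141), miR-3473c by 0.52 ± 0.17 (adjusted p = 0.383) and miR-3095-3p by 0.60 ± 0.15 (adjusted p = 0.170), each higher in 3 of 3 mice. miR-3473c was at the floor in zone 1 of mice 2 and 3, so its value depends on the floor. miR-3473g, tested as well, differed by -0.02 ± 0.09, with a 95% interval of -0.21 to 0.18, and was named after its value was seen.

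These 4 carry a shared stretch. The letters UGGAGAGA, searched on both strands in the mature sequences, occurred in 4 of the 246 tested miRNAs with a sequence, namely miR-3473a, miR-3473b and miR-3095-3p and, as the reverse complement, miR-3473c. The stretch was chosen after their values were seen, so the values are a description. How far the probe for one of these sequences also reads another was not tested. The 12 bases CTGGAGAGATGG occurred on either strand in 81 of 32851 RefSeq promoter windows of 300 bases (0.247%). The first 12 bases of miR-706, AGAGAAACCCTG, occurred in 59 (0.180%), whereas the first 12 bases of a tested miRNA occurred in a median of 2 windows. The stretch counted in 81 windows lies inside miR-3473b and not at its start, so that median is not a like measure for it. For 7 of the 246 (2.85%) the first 12 bases were found in at least 50 windows. These were miR-3473a, miR-3473b, miR-3473c, miR-706, miR-1187, miR-5126 and miR-466i-3p. Their differences ran from 0.54 for miR-3473b to 0.13 for miR-5126 and -0.10 for miR-466i-3p, which was higher in 1 mouse.

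miR-706 measured 1.43, 1.81, 2.06 and 2.07 in mouse 1, 1.14, 1.20, 1.54 and 1.83 in mouse 2, and 0.66, 0.65, 1.21 and 1.06 in mouse 3. Zones 3 and 4 were on top in each mouse, and mouse 3 was the lowest in every zone. The difference was 0.48 ± 0.10 (SE, adjusted p = 0.103). miR-21a-3p, the passenger arm of the growth-associated miR-21a precursor, measured 2.01, 2.13, 2.28 and 2.40 in mouse 1, 2.26, 2.57, 2.70 and 2.74 in mouse 2, and 1.85, 1.98, 2.32 and 2.19 in mouse 3. Mouse 2 lay above the others in every zone, so the pairs of zones overlapped across mice. It differed by 0.30 ± 0.09 (adjusted p = 0.257), while the guide arm miR-21a-5p differed by 0.12 ± 0.13, with a 95% interval of -0.19 to 0.43.

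miR-30c-1-3p and miR-30c-2-3p are passenger arms of the 2 miR-30c precursors and share the seed UGGGAGA. miR-30c-1-3p was at the floor in zones 1 and 2 of mouse 3 and measured 0.62, 0.69, 1.22 and 1.26 in zones 1 to 4 of mouse 1. Its difference was 0.45 ± 0.10 (SE, adjusted p = 0.114), but under quantile normalization the direction turned, to -0.20. miR-30c-2-3p, named after its values were seen, differed by 0.59 ± 0.33 (adjusted p = 0.534), with 2 of its 6 arrays in zones 1 and 2 at the floor. The guide arm miR-30c-5p, which both precursors yield, differed by -0.18 ± 0.12 (adjusted p = 0.560). Among the remaining miRNAs with low p-values, miR-714 differed by 0.58 ± 0.19 and miR-7221-3p by 0.53 ± 0.17 (adjusted p = 0.383 each).

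The miRNAs with lower signals in zones 3 and 4 did not pass. miR-130a-3p, known from vascular and metabolic studies, measured 8.34, 8.11, 7.76 and 7.77 in mouse 1, 7.88, 8.09, 7.96 and 7.57 in mouse 2, and 8.24, 8.06, 8.04 and 7.83 in mouse 3. Its lowest arrays were those of zones 3 and 4 in mouse 1 and of zone 4 in mouse 2. The difference was -0.30 ± 0.11 (SE, limma adjusted p = 0.383), lower in 3 of 3 mice.

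miR-5100 and miR-3968, both among the 5 brightest signals on the arrays, differed by -0.32 ± 0.12 and -0.31 ± 0.12 (adjusted p = 0.383 each). For miR-5100 the difference was -0.60 in mouse 1, -0.31 in mouse 2 and -0.05 in mouse 3, and under quantile normalization the fitted value was -0.02. That of miR-3968 was 0.02 under the same normalization. Quantile normalization gives each rank the same value on every array, so differences of the brightest miRNAs lie near 0 by construction. It put miR-6366, miR-3963 and miR-122-5p at 0, so these values do not bear on the direction. The 9 bases CGAAUCCCA occurred in these 2 and in no other of the 246 tested sequences. miR-6366 and miR-3963, the brightest of all, differed by -0.17 ± 0.11 and -0.22 ± 0.11 (adjusted p = 0.560 and 0.499).

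miR-423-3p was not detected in mouse 1. In mouse 2 it measured 1.73, 1.47 and 0.30 in zones 1 to 3, and in mouse 3 it measured 1.22 and 0.99 in zones 1 and 2, with the other values at the floor. The difference of -0.77 ± 0.21 (adjusted p = 0.253) thus rests on 2 mice and on the floor. miR-24-3p, encoded beside miR-23 and miR-27, differed by -0.23 ± 0.09 and miR-5122 by -0.33 ± 0.13 (adjusted p = 0.383 each). miR-28a-5p differed by -0.41 ± 0.17 (adjusted p = 0.405).

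Leaving out 1 array changed the count of slopes most. Without zone 1 of mouse 2, where the signal of many hepatocyte miRNAs was low, 11 miRNAs rose over the zones (3.82%) and 3 fell (1.04%) at an adjusted p under 0.05 (limma, 11 arrays). The 11 were miR-1949, miR-3472, miR-714, miR-3095-3p, miR-6969-5p, miR-3473b, miR-3473a, miR-30c-1-3p, miR-706, miR-370-3p and miR-677-3p, and the 3 that fell were miR-130a-3p, miR-5122 and miR-28a-5p. Their slopes ran from 0.17 per zone for miR-677-3p to 0.39 for miR-3472 and from -0.18 for miR-130a-3p to -0.29 for miR-28a-5p. On the same 11 arrays the difference of the zone pairs passed for miR-1949 alone (limma adjusted p = 0.0376), and the F test passed for none. With all 12 arrays the slope of miR-3472 was 0.27 (adjusted p = 0.266) and that of miR-28a-5p was -0.19 (adjusted p = 0.340). Without zones 1 and 4 of mouse 2 together, an alternative added after the data were seen, 9 rose (3.12%) and 3 fell (1.04%). Under both omissions 11 miRNAs were called, but the 2 fits share 10 arrays, so this overlap is not independent support. Several of these names were outside the naming rule and are given because they passed here.

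No liver-enriched miRNA passed the threshold across the 4 zones. miR-122-5p, the most abundant liver-specific miRNA and a regulator of lipid metabolism, measured 13.36, 13.29, 13.12 and 13.38 in zones 1 to 4 of mouse 1, 12.73, 13.32, 13.47 and 12.97 in mouse 2, and 13.18, 13.19, 13.36 and 13.37 in mouse 3. The low values were those of zones 1 and 4 of mouse 2. Its difference was 0.10 ± 0.14 (SE, limma adjusted p = 0.747), with a 95% interval of -0.21 to 0.41, and it was 0.08 without those arrays. Over the 12 hepatocyte-abundant miRNAs the median difference was 0.00, against 0.03 over all 288 tested, with 7 values above and 5 below 0 and 0 past the threshold. The mice differed in direction: all 12 were below 0 in mouse 1 (median -0.19), whereas 3 were below 0 in mouse 2 (median 0.14) and 5 in mouse 3 (median 0.02). Without zones 1 and 4 of mouse 2 the median was -0.06, with 9 of 12 below 0. miR-192-5p differed by -0.05 ± 0.18 (adjusted p = 0.942), or -0.11 without those arrays, and miR-22-3p by -0.14 ± 0.09 (adjusted p = 0.560).

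**Figure D3:**
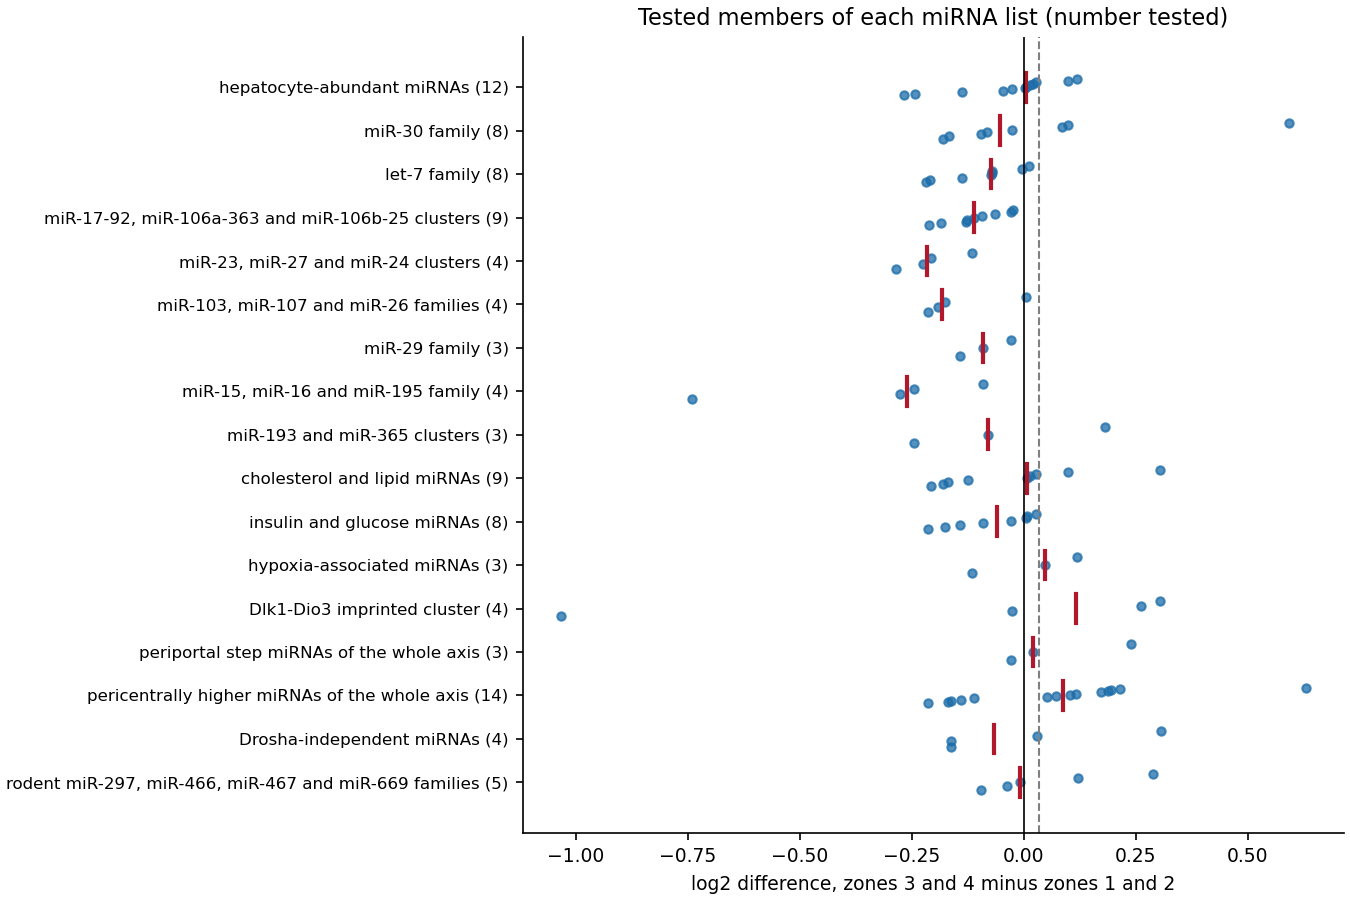
Log2 difference of zones 3 and 4 from zones 1 and 2 (horizontal) for the tested members of each list with at least 3 of them (rows, number tested in brackets); points are miRNAs, red bars list medians and the dashed line the median of all 288 tested (0.03). No member passed the adjusted threshold; the miR-15/16/195 family has the lowest median, -0.26, and with the summed signal as scale the medians of let-7, miR-30, miR-29 and the miR-17-92 lists lie above 0.

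Several families of broadly expressed guide miRNAs had differences below 0, and 0 of their members passed. Over all tested miRNAs 128 of 288 were below 0, and 162 of 288 in mouse 1. Brighter miRNAs had lower differences in general (Spearman -0.32), and the families were not tested against this. All 4 tested members of the miR-15/16/195 family, which restrains cell cycle genes, were below 0, with a median of -0.26. miR-16-5p differed by -0.28 ± 0.13, miR-15a-5p by -0.25 ± 0.14 and miR-15b-5p by -0.09 ± 0.17 (adjusted p = 0.463, 0.534 and 0.809). miR-195a-5p differed by -0.74 ± 0.35 (adjusted p = 0.463) but was detected on only 6 of the 12 arrays, 4 in zones 1 and 2 and 2 in zones 3 and 4. All 4 tested members of the miR-23/27/24 clusters were below 0 (median -0.22), with miR-23b-3p at -0.28 ± 0.13 and miR-27b-3p at -0.21 ± 0.13. Among miR-103, miR-107 and the miR-26 pair, which are known from insulin signalling, 3 of 4 were below 0 (median -0.18), with miR-107-3p at -0.22 ± 0.13 and miR-26a-5p at 0.00 ± 0.12, or -0.05 without zones 1 and 4 of mouse 2. The medians of these 3 families stayed below 0 under all 4 other scalings, and without zones 1 and 4 of mouse 2 they were -0.26, -0.21 and -0.16.

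For other families the sign depended on the scaling, and 128 of all 288 tested miRNAs were below 0. The let-7 family, which promotes differentiation, had 7 of 8 values below 0 with a median of -0.07, and the 9 tested members of the miR-17-92, miR-106a-363 and miR-106b-25 clusters, which favour proliferation, were all below 0 with a median of -0.11. The miR-29 family, which targets collagens, had 3 of 3 below 0 (median -0.09), and the miR-30 family 5 of 8 (median -0.05). Scaling on the summed signal moved the median of all tested miRNAs from 0.03 to 0.17 and turned these 4 medians to 0.07, 0.03, 0.05 and 0.09. Leaving arrays unscaled moved the median of all to 0.11 and scaling on the miRNAs detected on all 12 arrays to 0.10. Mouse 1 contributed most: the let-7 median was -0.35 in mouse 1, -0.02 in mouse 2 and 0.07 in mouse 3. Without zones 1 and 4 of mouse 2 the medians of the let-7, miR-17-92, miR-29 and miR-30 lists were -0.11, -0.13, -0.12 and -0.04, against 0.00 over all tested miRNAs.

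Among the lists drawn by function, the 9 tested cholesterol and lipid miRNAs had a median difference of 0.01 and the 8 insulin and glucose miRNAs -0.06. Of 7 hypoxia-associated miRNAs on the array 3 were tested. miR-210-3p, the best known of them, was detected on 9 of the 12 arrays and differed by 0.05 ± 0.36, with a 95% interval of -0.78 to 0.87, which is wide enough to hold a change of more than 1.5-fold either way. None of the members of these lists passed the threshold.

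Of 32 markers of other liver cells on the array, 1 was detected in zones 1 to 4. Those of leukocytes and Kupffer cells, stellate cells, biliary epithelium and erythroid cells were detected on 0 of the 12 arrays. The endothelial miR-126a-3p was detected on 7. It measured 2.75, 2.03, 3.40 and 3.46 in mouse 1, was not detected in zone 1 of mouse 2 and measured 1.31, 1.41 and 1.47 in its zones 2 to 4, and was not detected in mouse 3. It was thus higher in zones 3 and 4 in 2 of 3 mice, by 0.58 ± 0.25 over the 3 (limma adjusted p = 0.419), and its part in the other differences was not tested. In sorted populations a lower level per cell and a smaller share of cells carrying the miRNA cannot be told apart.

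Few of the miRNAs that mark the periportal end could be tested inside zones 1 to 4. Of 11 miRNAs listed for the step along the whole axis, a list drawn from these same arrays, 4 were detected in zones 1 to 4 and 3 were tested, of which 0 passed, while both arms of miR-31, miR-802-5p and miR-125a-5p were detected on 0 of the 12 arrays. miR-125b-5p differed by -0.03 ± 0.11 (95% interval -0.28 to 0.22), miR-99a-5p by 0.02 ± 0.17 and miR-100-5p by 0.24 ± 0.27. The 14 miRNAs listed as higher at the pericentral end were likewise chosen with earlier results of these data known. Their median difference was 0.09, with 9 above and 5 below 0 and 0 past the threshold. Over all tested miRNAs, 160 of 288 were above 0. miR-709 of the 14 differed by 0.10 ± 0.11 and miR-3472 by 0.63 ± 0.23 (limma adjusted p = 0.731 and 0.383). The latter is the highest of the 14 and was named after its value was seen.

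The Dlk1-Dio3 cluster is a large imprinted group of miRNA genes expressed from the maternal chromosome. Of its 34 listed members on the array 13 were detected in zones 1 to 4 and 4 were tested. miR-494-3p, the brightest, measured 8.50, 8.45, 8.91 and 9.39 in mouse 1, 8.36, 8.07, 8.18 and 8.59 in mouse 2, and 8.25, 8.70, 8.50 and 8.32 in mouse 3. The highest array was zone 4 of mouse 1, and the groups overlapped. Its difference was 0.26 ± 0.17, that of miR-370-3p 0.30 ± 0.13 and that of miR-487b-3p -0.03 ± 0.18 (adjusted p = 0.560, 0.418 and 0.965). miR-376b-3p differed by -1.03 ± 0.58 (adjusted p = 0.534), the most negative value of all 288, with a 95% interval of -2.35 to 0.28 and 8 arrays with detection.

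The other members were detected on few arrays, and whether their detection depended on zone was not tested. miR-127-3p, miR-136-5p, miR-154-5p, miR-379-5p and miR-434-3p were each detected on exactly 4 arrays, zone 1 of mouse 1 and zones 1 to 3 of mouse 3, and on 0 of the 12 arrays of zones 5 to 8. On those 4 arrays miR-127-3p measured 2.27, 3.59, 3.42 and 3.02. Detected members of the list numbered 9, 3, 3 and 3 in zones 1 to 4 of mouse 1. They numbered 5, 4, 4 and 5 in mouse 2, and 12, 13, 10 and 3 in mouse 3. Summed over the mice, 26, 20, 17 and 11 of 39 possible detections fell in zones 1, 2, 3 and 4, and the order was not shared by mouse 2. In all, 9 of the 33 miRNAs detected on exactly 4 arrays had this same set of arrays. Beside the 5 of the list they were miR-154-3p, miR-299b-5p, miR-377-3p and miR-497a-5p, and all 9 were named after their values were seen. Sharing a set of 4 arrays was not particular to them. miR-466o-3p, miR-467a-3p, miR-467b-3p, miR-467d-3p, miR-497b, miR-6393, miR-669h-3p, miR-669n, miR-7680-3p, miR-873b and miR-877-5p were detected in zones 1 to 4 of mouse 2 alone. These too were named after their values were seen. The Dlk1-Dio3 list does not hold the whole cluster, since miR-154-3p is the other arm of miR-154-5p. miR-497a-5p lies on chromosome 11, and the places of miR-299b-5p and miR-377-3p were not looked up. miR-195a-5p, encoded beside miR-497a, was highest on the same 4 arrays at 2.32, 2.71, 2.37 and 2.23. The endothelial miR-126a-3p was detected in zone 1 of mouse 1 and not on the 3 of these arrays that came from mouse 3. How it relates to this set of arrays was not tested.

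**Figure D4:**
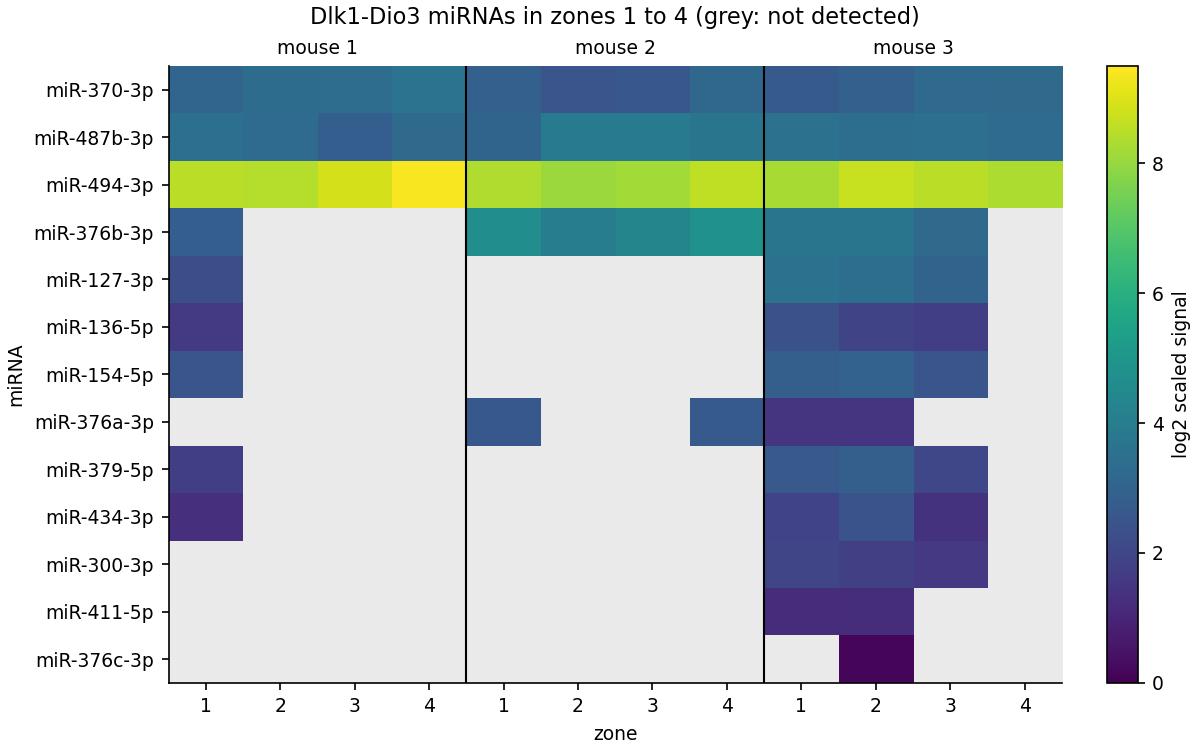
Log2 scaled signal (colour) of the 13 detected miRNAs of the Dlk1-Dio3 list (rows) on the 12 arrays (columns, zones 1 to 4 of each mouse). Grey marks arrays where the miRNA was not detected. A block of 5 miRNAs is filled in zone 1 of mouse 1 and zones 1 to 3 of mouse 3 and empty on the other 8 arrays.

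The slopes inside zones 1 to 4 were compared with those inside zones 5 to 8, which lay on the same slide columns in the second row, in 1 fit over 24 arrays. Of 280 miRNAs tested, 0 had a slope difference past the adjusted threshold in either direction (limma), with 15 higher (5.36%) and 18 lower (6.43%) in zones 1 to 4 at an unadjusted p under 0.05. miR-1949 had a slope of -0.07 per zone in zones 5 to 8, and the difference of 0.43 ± 0.11 (SE) gave an adjusted p of 0.0766. miR-24-3p had slopes of -0.12 and 0.06 and miR-23a-3p of -0.07 and 0.16, with differences of -0.18 ± 0.04 and -0.23 ± 0.06 and the same adjusted p of 0.0766. The difference of miR-23a-3p was named after its value was seen. Over the 280 miRNAs the slopes of the 2 sides correlated at 0.055 (Pearson), a description over arrays of the same mice.

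**Figure D5:**
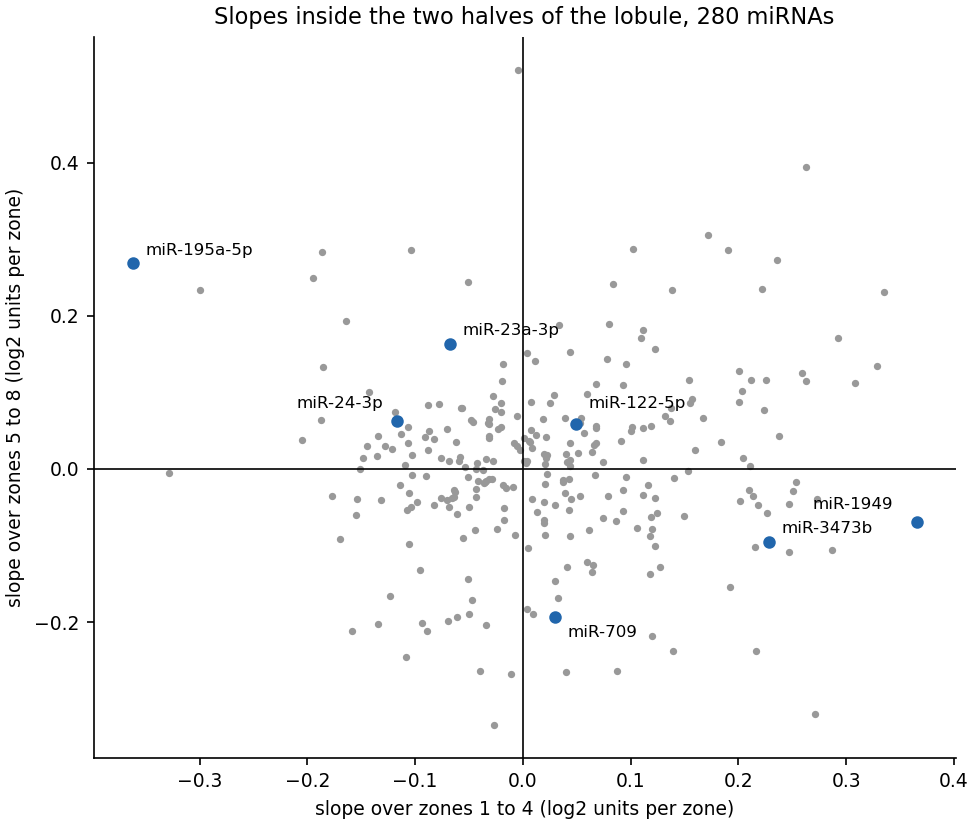
Slope over zones 1 to 4 (horizontal) against slope over zones 5 to 8 (vertical), in log2 units per zone, for 280 miRNAs (points), with 7 named ones in blue. miR-1949 lies farthest to the right (0.37 against -0.07). miR-24-3p and miR-23a-3p have fitted slopes below 0 in zones 1 to 4 and above 0 in zones 5 to 8, none of them past the adjusted threshold.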

How the data were processed

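Cy3-labelled total RNA was hybridised to Agilent 1-colour miRNA arrays, per the labels' protocols. The authors deposited intensity values, the total gene signal per miRNA on a linear scale with its error, and a detection call (1 or 0). Per the submitters' processing notes Agilent Feature Extraction was used. Undetected miRNAs have a signal of 0.1 in the deposited files. The deposited error of detected values was 11.2% of their signal in the median. Whether the authors scaled arrays to each other is not given in the sources used here.

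Signals without the 21 control rows were scaled so that every array had the same 75th percentile over 198 miRNAs, those detected on all 24 arrays. Values under a floor of 1.12, and undetected ones, were set to it before taking log2. The floor was the lowest scaled signal with a detection call on an array, as a median over arrays. Differences of miRNAs at the floor depend on it. limma 3.58.1 (R 4.3.3) fitted zone with mouse as a block, two-sided, with Benjamini-Hochberg adjustment over 288 miRNAs (detection calls on 6 or more of 12 arrays) and a threshold of 0.05. The fit was tested on simulated data. Figures used matplotlib 3.10.9.

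The mouse number pairs the arrays because a number is 1 animal. Deviations from zone means correlated at a median of 0.643 between arrays of a mouse (lowest 0.221), and no 2 arrays were identical. The members, lists and tests were chosen with earlier results of these data known. Named miRNAs were those past the threshold, up to 10 lowest p-values per direction, up to 3 from the slope or F tests, up to 5 of each sign from the slope comparison, up to 4 bright members per list, the 5 brightest, those whose detection differed by at least 4 arrays between zone pairs (none did) and cell markers; others are said to be named after their values were seen. Alternatives were 4 other scalings, 3 detection filters, a lower floor, eBayes with trend and robust, no mouse block, 1 fit of 24 arrays, and leaving out arrays and mice. Sequences were matched by name to RefSeq tables.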

Additional observations from a re-analysis of the deposited data

Results flagged for a closer look

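In 136 groups of 6 arrays (single named miRNAs or array totals in 1 zone pair), 16 held an array far from its neighbour. Its gap, as a share of the range, passed Dixon's 95% critical value, which about 1 in 20 independent groups pass by chance. The 136 groups share arrays and mice, so that rate cannot be applied to the 16. In 9 of them the array was zone 1 of mouse 2, which was low for miR-122-5p (12.73 against 13.18 to 13.36 on the other 5), miR-192-5p (9.23), let-7f-5p (9.16), let-7a-5p (8.80), let-7g-5p (8.27), miR-19b-3p (6.59), miR-20b-5p (4.20), miR-26a-5p (7.39) and miR-148a-3p (7.18 against 8.00 to 8.20), in log2 scaled signal. Zone 4 of mouse 2 was low for let-7f-5p (8.55), let-7g-5p (7.96), miR-221-3p (2.84) and the 75th percentile used for scaling (57.8 against 69.6 to 76.1 intensity units). miR-125b-5p was high in zone 2 (6.59) and zone 3 (6.68) of mouse 2, and miR-702-3p was low in zone 3 of mouse 1 (1.37 against 2.40 to 2.80).

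Among the 21 control rows, 4 control sequences whose names begin with dmr were detected on 8 of the 12 arrays, those of mice 1 and 2, and on none of mouse 3.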

How the results depend on the processing

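The number of miRNAs higher in zones 3 and 4, 1 in the reported fit, was 0 with the 75th percentile over all miRNAs (which leaves arrays unscaled), with quantile normalization, with all 24 arrays in 1 fit, without the mouse block, and without zones 1 and 4 of mouse 2 together. It was 3 when only miRNAs detected on all arrays were tested (miR-1949, miR-3473b and miR-706), 2 with eBayes trend and robust, and 0 to 2 when a mouse or a single array was left out. Without the block that pairs arrays by mouse, the adjusted p of miR-1949 was 0.822 and the median SE was 0.224 against 0.151. The number of rising slopes, 1 in the reported fit, was 0 with the 75th percentile over all miRNAs, quantile normalization, no block and 24 arrays, 4 with scaling on miRNAs detected on all 12 arrays, 3 with the summed signal, 4 with the all-array filter, 0 to 11 when a mouse or an array was left out, and 9 without both arrays of mouse 2. Without mouse 3 the miRNA called was miR-6352 in place of miR-1949, and miR-6352 was named because it passed there. Falling slopes, 0 in the reported fit, numbered 0 to 3 with single omissions and 3 without both arrays. The F test called 1 miRNA, miR-1949, with scaling on the miRNAs detected on all 12 arrays, with the summed signal and with the all-array filter. The slope comparison called 1 higher and 2 lower with the all-array filter, 1 lower with a floor 4 times lower and 1 lower with trend and robust. No value called in the reported fit changed its sign. Of 75 named miRNAs, those named by rule and miR-30c-2-3p, 23 changed sign under at least 1 other scaling. These were miR-30c-1-3p (0.45 to -0.20) and miR-3968 (-0.31 to 0.02), both under quantile normalization, and 21 with a reported difference of 0.14 or less in size. For miR-3968, one of the brightest signals, that normalization sets the difference near 0 by construction. The all-array filter tests fewer miRNAs, and leaving out mice leaves fewer arrays; the cause of the other changes was not tested. With 3 mice, dim miRNAs near the floor limit what could be seen.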

Other observations

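Both arms were tested for 23 precursors. The arms differed by a median of 0.18 log2 units in their zone-pair difference, and for 8 precursors the signs were opposite. The widest gap was that of miR-423, where miR-423-5p differed by 0.07 ± 0.23 and miR-423-3p by -0.77 ± 0.21 (SE), followed by miR-455, with 0.72 ± 0.33 for the 5p arm and 0.04 ± 0.19 for the 3p arm. miR-122-5p and miR-122-3p differed by 0.10 ± 0.14 and -0.27 ± 0.16. Of these arms miR-423-3p and miR-122-5p were named by rule and the others after their values were seen. The gaps were not tested.

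Of the 388 miRNAs detected on at least 1 array, 250 were detected on equally many arrays of zones 1 and 2 and of zones 3 and 4. No miRNA differed by 4 arrays or more. miR-5121 and miR-7219-5p were each detected on 0 arrays of zones 1 and 2 and 3 of zones 3 and 4, and miR-767 on 1 and 4. These 3 were named after their values were seen.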
